A study of Mus musculus with 3 samples.

Results

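The AP-1 genes described here are Fos, Fosb, Fosl1, Fosl2, Jun, Junb, Jund, Atf3 and Maff, taken by gene symbol from a count table of 27179 genes, so that 9 genes are members. RNA was counted in 3 libraries of a single group, made from stromal cells of the epididymal fat pads of male C57B6 mice, wild-type and naive, aged 12 weeks. The cells were freed with Collagenase II and sorted alive as CD45-, CD31-, Ter119-, CD140a+, Sca1+ and PDPN+. They are labelled as adipose stem and progenitor cells. No other genotype, treatment or time was available, so the comparisons lie between genes within a library and between the 3 libraries. Fat of 3 mice was used, and whether a library holds 1 mouse or a pool is not labelled. SDs and p-values therefore rest on the spread between these libraries, part of which may be technical. No undigested tissue was measured, and levels therefore stand for cells after digestion and sorting.

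AP-1 is a pair of basic leucine zipper (bZIP) proteins that binds DNA through a basic region and dimerises through the adjoining zipper. FOS proteins cannot pair with each other and need a JUN partner, whereas JUN proteins can also pair among themselves. ATF3, a stress-induced member of the ATF/CREB family, pairs with JUN proteins, and MAFF is a small MAF protein with no transactivation domain. Fos, Jun, Junb, Fosb, Atf3 and Maff are known as immediate-early genes, whose transcription rises within minutes of a growth factor, stress or tissue handling and whose RNA decays quickly. In fibroblasts and their progenitors AP-1 is known for control of proliferation, matrix proteases and cytokines.

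The libraries held 32813373, 25060096 and 27275888 counts, and levels below are CPM, each count relative to the size of its library after TMM scaling, which corrects for differences in composition. A count of 0 allowed up to 3 counts, or 0.0945, 0.119 and 0.107 CPM, a limit that reflects counting error alone, since PCR copies are not separate molecules. The genes of the positive sort markers were detected in 3 of 3 cases (Pdgfra, Ly6a and Pdpn), where detected means 1 CPM or more in every library. Of the excluded markers, Pecam1 (CD31) had 4 counts in all and Ptprc (CD45) 5.42, 15.8 and 7.68 CPM. Of the lists for macrophages and monocytes (10 genes), endothelium (8), lymphocytes (8), granulocytes and mast cells (7), erythroid cells (5), mesothelium (8), mural cells (7) and mature adipocytes (7), 0 genes were detected. Their summed levels were lowest for granulocytes and mast cells, at 0.0630 to 0.119 CPM, and reached 2.11 to 9.99 CPM for mature adipocytes and 5.89 to 9.82 CPM for mural cells. The macrophage and monocyte list summed to 0.750 to 4.52 CPM, and C1qb, Esam, Lck, Adipoq and S100a8 had 0 counts. In these bulk samples fewer cells of a type and less RNA per cell cannot be told apart.

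The coding sequence of the basic region shows how the members are related and how far their sequences differ. Stretches of 18 codons are shown for the FOS member with the most counts, the FOS member with none, and 1 member of each other branch, from GENCODE M21 transcripts on GRCm38, 5′ to 3′ on the coding strand. The capitals mark the 9 codons of the signature that contacts DNA.
Fos: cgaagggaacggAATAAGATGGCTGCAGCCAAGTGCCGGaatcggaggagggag
Fosl1: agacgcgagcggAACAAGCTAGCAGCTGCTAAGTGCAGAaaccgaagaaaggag
Jun: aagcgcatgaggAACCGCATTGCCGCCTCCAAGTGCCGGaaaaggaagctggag
Atf3: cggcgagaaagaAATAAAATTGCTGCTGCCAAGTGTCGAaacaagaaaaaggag
Maff: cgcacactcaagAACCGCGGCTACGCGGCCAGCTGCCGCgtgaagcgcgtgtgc
These stretches lie at chr12:85475625-85475678 for Fos, chr19:5454446-5454499 for Fosl1, chr4:95050438-95050491 for Jun, chr1:191172396-191172449 for Atf3 and chr15:79357553-79357606 for Maff. Fos and Fosl1 encode the same residue at 16 of 18 positions but share only 38 of 54 bases. Within the FOS group, pairs shared 16 to 18 residues and 37 to 44 bases, and within the JUN group 15 to 17 residues and 43 bases. FOS and JUN genes shared 10 or 11 residues, Atf3 shared 14 or 15 with the FOS genes and 10 or 11 with the JUN genes, and Maff shared 5 to 7 with any other member. At 90% identity over 50% of the coding sequence, no member matched a transcript of another gene except where a gene on the opposite strand covers it (Ccdc85b for Fosl1 and Gm11175 for Jund).

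Of the 9 AP-1 genes, 8 passed the detection level of 1 CPM, and Fosl1 had 0 counts throughout. Of all genes measured, 35.0% were detected, and of protein-coding genes 43.7%. The same 8 members passed at 0.5, 5 and 20 CPM, where 36.6%, 28.3% and 17.4% of all genes did. At 100 CPM or more in every library there were 7 members, against 5.07% of all genes. The median member stood at 554 CPM and the median gene of the table at 0.108 CPM. Together the members took 0.897%, 1.06% and 1.10% of all counts in libraries 1, 2 and 3, and Fos alone supplied 64.0%, 65.5% and 64.3% of the members' counts.

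**Figure D1:**
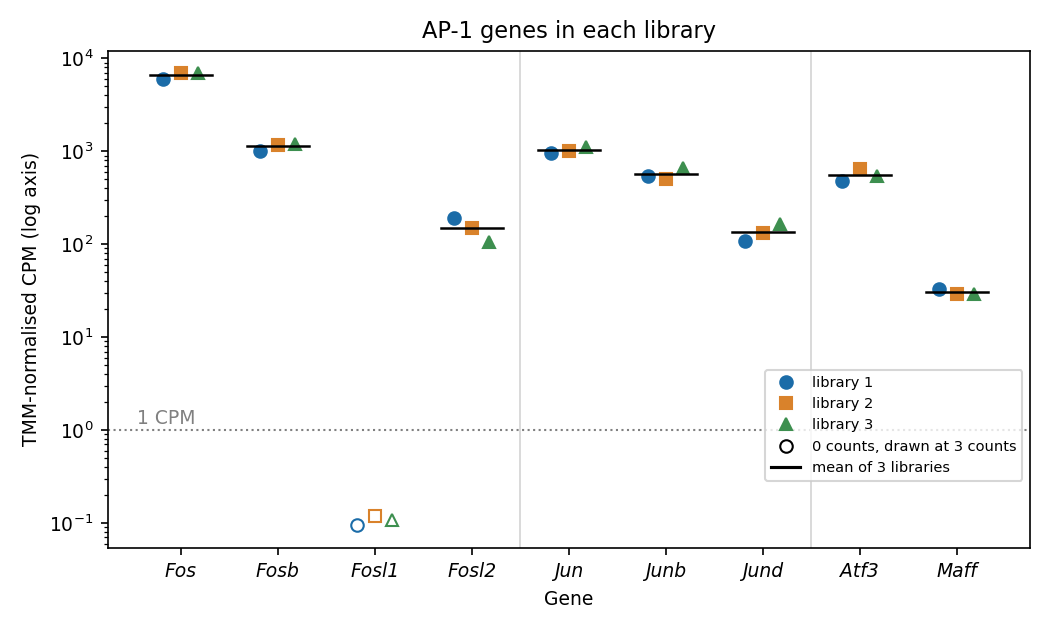
TMM-normalised CPM (log axis) of each AP-1 gene in libraries 1, 2 and 3, with a line at the mean of the 3 libraries. Fos stood between 5932 and 6908 CPM, and Fosl1, at 0 counts, is drawn with open symbols at the level of 3 counts.

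Among the FOS genes, whose products are the obligate partners of JUN proteins, Fos and Fosb were high in every library, Fosl2 was intermediate and Fosl1 was at 0. Fos (gene 14281, 4 exons, chr12:85473890-85477274) reached 5932, 6908 and 6884 CPM, or 6574 ± 557 (SD, n = 3). This single gene held 0.574%, 0.696% and 0.707% of the counts of libraries 1, 2 and 3. Fosb (gene 14282, chr7:19302696-19310118), whose product can replace c-Fos in the dimer and which also gives a shortened splice form, stood at 1020.4, 1163 and 1198 CPM, or 1127 ± 94.2. Counts per gene do not separate that splice form. For Fos and Fosb alike, library 1 was the lowest and libraries 2 and 3 lay close together. Fosl2 (gene 14284, chr5:32136472-32157840), encoding FRA-2, stood at 194, 148 and 105 CPM, or 149 ± 44.6. Its libraries stood in the reverse order of those of Fosb, with library 1 highest and library 3 lowest.

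Fosl1, which encodes FRA-1 and is known as a slower, growth factor-induced member, had 0 counts in all 3 libraries (gene 14283, 4 exons, chr19:5447698-5455938). Ccdc85b, at chr19:5453163-5457563 on the opposite strand, covers much of it, so that 870 of its 2033 exonic bases (42.8%) are free of another gene's exons. Ccdc85b had 51, 228 and 328 counts, and how reads shared by both genes were assigned was not stated in the labels. The count of 0 for Fosl1 may therefore rest on the free bases alone. Set against 3 counts per library on those 870 bases, Fos was at least 21492-fold higher per kilobase, Fosb at least 1364-fold and Fosl2 at least 87.9-fold. These bounds are the smallest over the 3 libraries and cover counting error only.

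All 3 JUN genes, each a single exon in its longest coding transcript, were above 100 CPM in every library. Jun (gene 16476, chr4:95049036-95052222), encoding c-Jun, the main partner of c-Fos, stood at 958, 1012 and 1123 CPM, or 1031 ± 84.1. Junb (gene 16477, chr8:84976909-84978748), often described as a weaker activator that can oppose c-Jun, stood at 547, 507 and 668 CPM, or 574 ± 83.4. For both genes library 3 was the highest, by more for Junb than for Jun. Jund (gene 16478, chr8:70697739-70700616), the member usually expressed without stimulation, stood at 108, 133 and 165 CPM, or 135 ± 28.7. Of its exonic bases 47.4% are free of Gm11175, an antisense transcript of GENCODE, and without strand in the counting their reads cannot be told apart. Of the exonic bases of Jun 92.7% are free of the antisense transcript Junos. Of those of Junb 92.5% are free of Prdx2, an opposite-strand gene with 6220, 3808 and 5901 counts.

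Atf3 and Maff, the partners from other bZIP families, differed widely in level. Atf3 (gene 11910, chr1:191170296-191183333) stood at 480.1, 643 and 538 CPM, or 554 ± 82.7, with library 2 highest. Maff (gene 17133, chr15:79346621-79359078) stood at 32.8, 29.4 and 29.4 CPM, or 30.5 ± 1.95, the lowest level among the members with counts. Its libraries nearly coincided.

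Levels of different genes were compared per kilobase of exon, because longer transcripts give more fragments. In this order Fos led at 2795 ± 237 CPM per kilobase, the 14th highest of 24880 genes with a length, followed by Jun at 323 ± 26.4, Atf3 at 257 ± 38.4, Junb at 249.5 ± 36.3, Fosb at 181 ± 15.1, Jund at 81.0 ± 17.2, Fosl2 at 15.4 ± 4.61 and Maff at 11.8 ± 0.751. Fos exceeded Jun by 3.11 ± 0.09 on the log2(CPM per kilobase + 0.5) scale, and Fosb exceeded Jund by 1.17 ± 0.20, in 3 of 3 libraries. Jund exceeded Fosl2 by 2.38 ± 0.74, and the difference was 1.66, 2.34 and 3.13 in libraries 1, 2 and 3. Jun over Atf3 (0.34 ± 0.22) and Junb over Fosb (0.46 ± 0.19) also had 1 sign in 3 of 3 libraries. The neighbours Atf3 and Junb did not differ beyond their spread (0.04 ± 0.35), and neither did Fosl2 and Maff (0.33 ± 0.36), each with 1 sign in only 2 of 3 libraries. Atf3 minus Junb turned to -0.16 without library 2 and to -0.19 with the longest transcript as length. With that length Jun minus Atf3 was 0.22 and Junb minus Fosb 0.084, and neither kept 1 sign in all libraries (exact permutation p = 0.5), while Fosl2 minus Maff was 0.49 with 1 sign (exact permutation p = 0.25). The 2-sided exact sign-flip permutation test cannot go below p = 0.25 with 3 libraries, so none of the 8 differences tested could pass 0.05, and the Benjamini-Hochberg adjusted p was 0.33 for the 6 with 1 sign in all libraries, by the same exact test. Without length scaling the order of Junb and Fosb turned to -0.98 and that of Jund and Fosl2 to -0.12, since the exons of Fosb (6243 bases) and Fosl2 (9680 bases) are long. All lengths are of GENCODE exons, and the annotation behind the counts is not given. For Jund the RefSeq gene starts at 70697739 and the GENCODE gene at 70698949. The span of Junb is 84976909-84978748 in RefSeq and 84974484-84978718 in GENCODE. Levels per kilobase with RefSeq lengths were not computed.

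**Figure D2:**
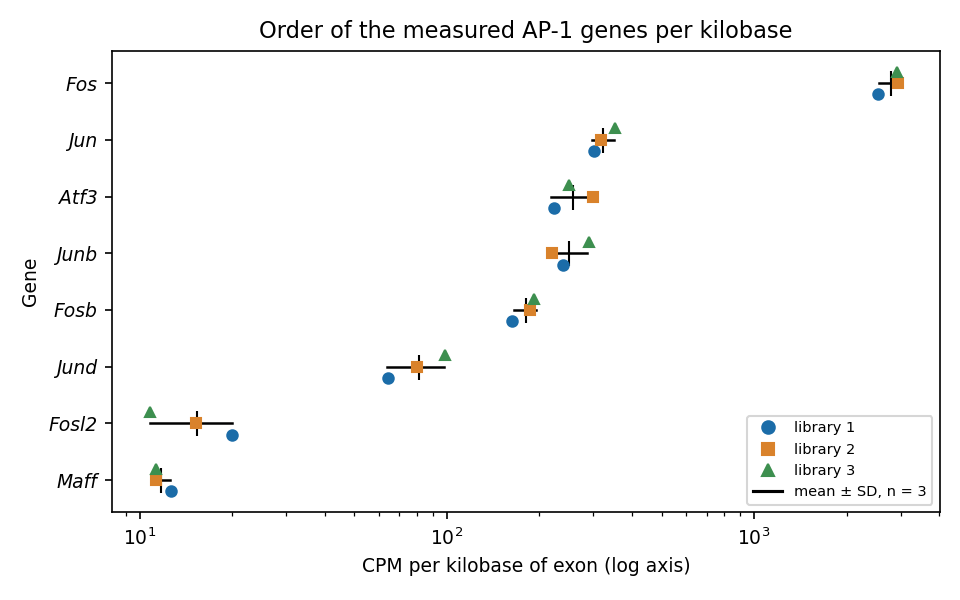
CPM per kilobase of exon (log axis) of the 8 AP-1 genes with counts, ordered by their mean, with each library as a symbol and the mean ± SD over 3 libraries as a tick and bar. Fos stands apart at 2795, and the symbols of Atf3 and Junb overlap.

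Transcripts of the FOS genes outweighed those of the JUN genes in every library. Summed per kilobase, the 4 FOS genes reached 2705, 3139 and 3130 CPM per kilobase and the 3 JUN genes 603, 618 and 741. The ratio was 2.20 ± 0.14 on the log2 scale, and FOS was higher in each of the 3 (2-sided exact permutation test by sign flips, p = 0.25, the lowest value this design can reach). The subfamilies were built unequally. Fos supplied 93.2% to 93.6% of the FOS sum, whereas Jun supplied 47.5% to 51.4% of the JUN sum.

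Between libraries the AP-1 genes with counts differed by 1.12 times (Maff) to 1.85 times (Fosl2) from lowest to highest. The coefficient of variation was 8.47% for Fos, 8.36% for Fosb, 8.16% for Jun and 6.38% for Maff, was 14.5% for Junb and 14.9% for Atf3, and was highest for Jund at 21.3% and Fosl2 at 29.9%. Against genes within 2-fold of its own level, the SD of Maff on the log2(CPM + 0.5) scale, 0.09, was larger than that of only 2.52% of 4004 genes. Fosl2, with an SD of 0.44, exceeded 74.9% of 1830 such genes, and the other members with counts exceeded 23.8% to 47.9%. An intercept-only edgeR fit across 13289 genes, with the residual deviance tested for goodness of fit, called 0 of the 8 members tested (Benjamini-Hochberg adjusted p = 0.84 to 0.9998). In that fit 0.572% of all genes were called, and 7.73% had an unadjusted p under 0.05, as did 0 of the members. With DESeq2 size factors 0 members were called and 0 had an unadjusted p under 0.05. When genes with few counts were also kept, Fos was called (edgeR, adjusted p = 2.06e-31), because the spread fitted at its level fell to a coefficient of variation of 0.946%. With the stated filter it was 7.10%. The test asks for spread beyond that fitted to genes of similar level in the same 3 libraries. A member that was not called is thus not shown to be stable.

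**Figure D3:**
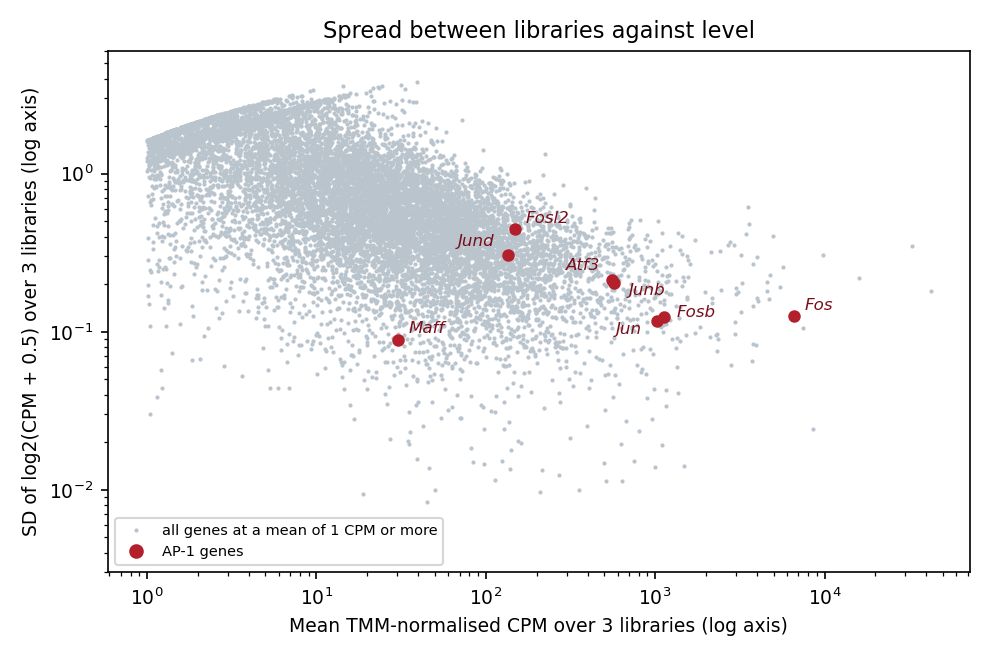
SD of log2(CPM + 0.5) over the 3 libraries (log axis) against the mean CPM (log axis), with all genes at a mean of 1 CPM or more in grey and the 8 AP-1 genes with counts in red. Maff lies low among genes of its level, and Fosl2 has the largest SD of the members, 0.44.

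The small deviations of the members did not all follow each other. Relative to its own mean, library 1 was lowest for Fos, Fosb, Jun, Jund and Atf3, by 0.14, 0.14, 0.10, 0.31 and 0.19 on the log2 scale, and highest for Fosl2 and Maff. The profile of Fos over the 3 libraries lay nearest, among members, to that of Fosb (Euclidean distance of centred log2 values 0.03) and farthest from that of Fosl2 (0.78). Among 1749 other genes with a mean of at least 100 CPM, Flna, Brk1, Dync1h1, Bcas2 and Tfg lay nearest to Fos, at distances of 0.00337 to 0.0181. The genes nearest to Jun were Efcab14, Bicc1, Rras, Ids and the immediate-early gene Egr1, at 0.00786 to 0.0280. Each distance rests on 3 libraries, so it is a description of these libraries alone.

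Summed heat shock genes, which respond to handling stress, stood at 5178, 8405 and 5601 CPM in libraries 1, 2 and 3, and summed AP-1 genes at 9271, 10544 and 10709. Hspa1b reached 2777, 4683 and 2922 CPM and Hspa1a 767, 1469 and 864. Library 2 was highest for both, as for Atf3 and narrowly for Fos, but for none of the other members with counts. Hspa1a and Hspa1b are near-identical copies, so their split is uncertain. The cochaperone gene Dnaja1 was also highest in library 2, at 305, 514 and 332 CPM, whereas the HSP90 gene Hsp90ab1 stood at 606, 657 and 664. Mitochondrial genes took 3.35%, 2.87% and 2.79% of the counts. The part of heat shock and RNA quality in the AP-1 levels was not tested.

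Partners and regulators of AP-1 were detected in most cases, at lower medians than the members themselves. Shares of each list are set against all genes, and the share of protein-coding genes detected was higher, at 43.7%. Of the other bZIP factors 22 of 29 were detected (75.9%, against 35.0% of all genes), with a median of 27.1 CPM. They were led by Maf, a large MAF factor, at 512 ± 43.3 CPM, Nfe2l2, the oxidative stress factor NRF2, at 357 ± 118, Atf2, a JUN partner activated by stress kinases, at 140.4 ± 1.74, and Creb1 at 100.2 ± 24.5. Jdp2, a JUN dimerisation repressor, stood at 45.1 ± 9.33, and the other small MAF genes Mafg and Mafk at 26.1 ± 5.53 and 17.4 ± 8.36. Batf, an AP-1 factor of lymphocytes, had 0 counts, and Nfe2, Nrl and Batf2 stayed below 1 CPM in every library.

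The RNAs of factors known to act on Fos transcription were mostly detected. Of SRF and its ternary complex and myocardin-related partners 5 of 7 were detected (71.4%, against 35.0% of all genes), with a median of 10.04 CPM. They were led by Elk3 at 66.9 ± 15.6 CPM, Mrtfb at 28.2 ± 5.29, Srf at 27.1 ± 10.3 and Elk1 at 10.04 ± 3.90. Elk4 was at 0.04 CPM in library 2 and Myocd, a muscle coactivator, had 0 counts. Of the MAP kinase cascades, which phosphorylate the ternary complex factors and c-Jun, 19 of 26 were detected (73.1%, against 35.0% of all genes). The median of this list was 30.9 CPM. Among its genes were Map2k1 (MEK1) at 112 ± 26.4 CPM, Mapk3 (ERK1) at 79.4 ± 18.2 and Araf at 66.5 ± 6.10. The JNK genes Mapk8 and Mapk9 stood at 42.9 ± 25.6 and 44.2 ± 8.37. Rps6ka1 had 0 counts.

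Genes listed for feedback and turnover of AP-1 were detected in 9 of 12 cases (75.0%, against 35.0% of all genes). The median of this list was 45.7 CPM. Zfp36, whose product tristetraprolin destroys AU-rich RNAs, stood at 1078 ± 79.4 CPM, Zfp36l1 at 594 ± 51.8, the MAP kinase phosphatase gene Dusp1 at 141 ± 26.0 and Zfp36l2 at 114 ± 41.5. Dusp4 and Dusp5 had 8 and 2 counts in all. Of the other immediate-early genes 21 of 26 were detected (80.8%, against 35.0% of all genes), with a median of 78.2 CPM. The highest were Egr1 at 2953 ± 199.7, Klf2 at 1173 ± 181, Klf4 at 871 ± 141 and Klf6 at 842 ± 46.6 CPM. The immediate-early genes did not all read high: Egr3, Egr4, Nr4a3 and Npas4 had 1, 1, 0 and 4 counts over the 3 libraries.

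Genes described as AP-1 targets in fibroblasts were split. In all 16 of 22 were detected (72.7%, against 35.0% of all genes), with a median of 28.6 CPM. The highest were the intermediate filament gene Vim at 3757 ± 168, the metallothionein gene Mt1 at 2682 ± 656, Ccl2 at 1399.7 ± 142 and Cxcl1 at 300.3 ± 114. Among the matrix metalloproteases, Mmp14 stood at 177 ± 61.0 CPM and Mmp3 (stromelysin-1) at 143 ± 17.8. Mmp13 had 0 counts, Mmp10 had 1, and Mmp9 stood at 6.65, 0.0396 and 0 CPM. The osteopontin gene Spp1 also had 0 counts. These lists were assembled from general knowledge, and a count of detected genes does not show that AP-1 acted on them.

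**Figure D4:**
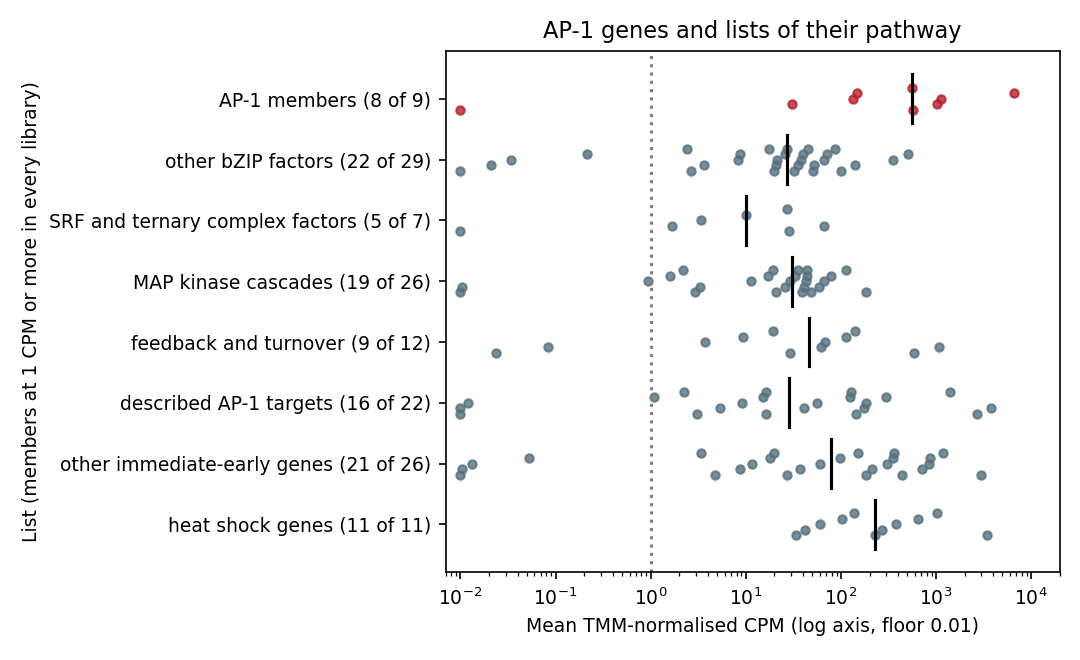
Mean CPM over 3 libraries (log axis) of each gene in the AP-1 set and 7 lists of its pathway, with a black line at each list's median and a dotted line at 1 CPM. Labels give the genes detected of those measured, and the AP-1 median of 554 CPM lies to the right of the other medians.

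The promoter windows, 250 bases before the RefSeq starts on GRCm38.p6, were matched for 8 members, and Maff had 3 starts. Motifs were searched on both strands. Bases farther from the start were not searched, so a count of 0 covers these windows alone. The letters TGACG, the core of the cAMP response element that ATF/CREB and AP-1 dimers bind, lay in windows of 5 of the 8 genes (Fos, Fosb, Junb, Atf3 and Maff), while 19.8% of 27025 genes hold them. The full element TGACGTCA, which overlaps TGACG, lay in 1 of 8 (Maff), against 1.77% of genes. TGACTCA, which reads TGAGTCA on the other strand, is the classical AP-1 site and lay in 0 of 8, against 5.16%. The CArG box of SRF lay in 0 of 8, against 1.62%. The variant TGACATCA was sought after the Jun window had been read, so the match in Jun was known beforehand. It lay in 2 of 8 genes (Jun, and Maff at the start 79348402 only), while 3.41% of all genes hold it. These shares therefore cannot be compared. Windows around the TGACG match nearest the start are shown for the 5 genes that hold it. The Jun window, which holds no TGACG, is shown around the variant. In Atf3 and Maff the match lies on the other strand and reads CGTCA, in Maff as part of the full element. All are printed 5′ to 3′ on the gene's strand, with the match in capitals.
Fos: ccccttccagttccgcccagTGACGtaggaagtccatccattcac
Fosb: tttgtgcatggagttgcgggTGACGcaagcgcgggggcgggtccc
Jun: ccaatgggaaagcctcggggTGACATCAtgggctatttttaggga
Junb: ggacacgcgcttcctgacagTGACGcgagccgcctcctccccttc
Atf3: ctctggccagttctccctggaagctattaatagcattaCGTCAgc
Maff: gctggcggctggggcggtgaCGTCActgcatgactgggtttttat
They lie at chr12:85473804-85473848 (Fos, plus strand), chr7:19310081-19310125 (Fosb, minus), chr4:95052243-95052287 (Jun, minus), chr8:84978830-84978874 (Junb, minus), chr1:191183334-191183378 (Atf3, minus) and chr15:79347474-79347518 (Maff, plus, the second start). Matches began at -66 in Fos, -60 in Fosb, -45 in Jun, -106 in Junb, -7 in Atf3 and -26 in Maff, where -1 is the base before the start. Fos held another TGACG at -129. The Fosb start used for its window, 19310045, lies inside the RefSeq gene, which begins at 19310118, so its printed stretch overlaps the gene span. The later Maff starts, 79347520 and 79348402, likewise lie inside the gene span, which begins at 79346621. The Fosl2 window held none of these motifs. The window of Jund lies before the RefSeq start at 70697739, upstream of the GENCODE start at 70698949, and held none of these motifs. A match is a description of the letters and says nothing of what binds there.

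**Figure D5:**
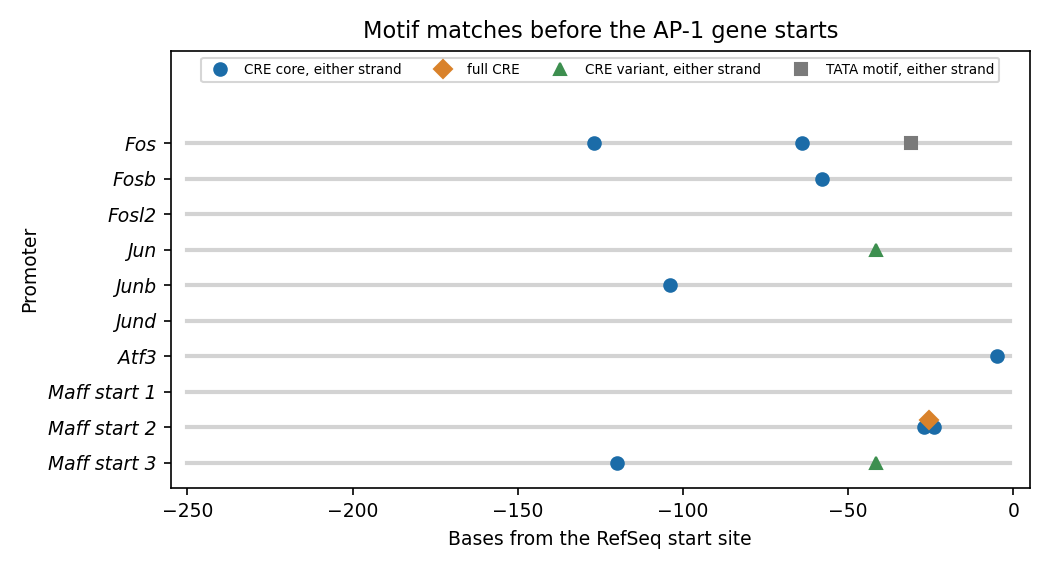
Positions of motif matches in the 250 bases before each RefSeq start of 8 AP-1 genes (horizontal axis, bases from the start), with the CRE core as circles, the full CRE as a diamond, the variant as triangles and the TATA motif as a square. Fos, Fosb, Junb, Atf3 and Maff hold the core, and the TATA motif is marked only in Fos. Of 27025 genes 25.8% hold the TATA motif.

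The transcripts of all 9 members carry the pentamer ATTTA, the core of AU-rich decay elements, after the stop codon, as do 63.2% of 20055 protein-coding genes. The longer TATTTAT lay in 8 of 9 members, against 26.1% of genes. Fos had the highest density, 4.91 ATTTA per kilobase, followed by Junb at 4.12, Maff at 3.28, Jun at 3.24 and Atf3 at 2.53, and the median gene had 1.19. Fosb was below that median at 0.466. Coding GC content ranged from 51.0% in Atf3 to 70.1% in Maff and 70.7% in Jund. The levels were not tested against either feature.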

How the data were processed

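RNA from sorted cells was made into libraries with a Clontech SMARTer Ultra Low Input kit (V4), per the labels' protocols, and no molecular identifiers are mentioned. The authors deposited raw counts, whole numbers keyed by NCBI gene ID, in 3 columns matched to the samples by number. Per the submitters' processing notes, the tools included STAR 2.3.0 and CASAVA 1.8.2, with build mm10. Counting tool, annotation and strand setting: not given in the sources used here. Symbols and gene coordinates came from RefSeq GRCm38.p6 (25275 of 27179 IDs matched), and exon lengths from GENCODE M21 (24880 IDs). Promoter sequences are RefSeq's.

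From the counts, CPM used TMM sizes (edgeR 4.0.16, R 4.3.3), and log2 values a pseudocount of 0.5, which understates differences near 0. Variation was tested with a trended dispersion over genes with 10 counts or more in at least 1 library. The deviance was computed directly, because edgeR's series for very small dispersions failed at the highest counts. The test was checked on simulated data, with changes larger than those of the members between libraries. The changed genes lay below the levels of Fos, Fosb, Jun, Junb and Atf3. The check therefore does not cover small changes or such high levels. Alternatives were DESeq2 1.42.0 size factors, unscaled totals, other thresholds, pseudocounts, filters, gene lengths and dispersions, and each library left out in turn. Near-identical transcripts were sought with BLAST 2.17.0. Python 3.11.15, numpy 2.4.6, scipy 1.17.1, pandas 2.3.3, matplotlib 3.10.9 and Biopython 1.88 were used.

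Members and lists were chosen with earlier results of these data known. Named are all members, the sort markers, the 4 genes of each pathway list highest in mean CPM, further genes at or near 0, and the 5 genes nearest to Fos and to Jun. Mafg, Mafk, Jdp2, Mapk8, Mapk9, Mmp14 and Mmp3 were named in addition, after their values were seen. A gene that this rule names in the MAP kinase list is not reported here. Older symbols were matched through RefSeq synonyms.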

Additional observations from a re-analysis of the deposited data

How the results depend on the processing

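The count of 8 detected members held at 0.5, 5 and 20 CPM, with the other scalings and without any library. At 20 CPM detection fell to 13 of 29 other bZIP factors, 2 of 7 SRF list genes and 12 of 26 MAP kinase genes. Fewer genes can pass at that level, and 17.4% of all genes did. Without length scaling, Atf3 minus Junb turned to -0.053, Junb minus Fosb to -0.98 and Jund minus Fosl2 to -0.12. With the longest transcript, Atf3 minus Junb turned to -0.19, and leaving out each library gave -0.16 to 0.17 (negative without replicate 2). The other neighbour differences and the FOS to JUN ratio (2.12 to 2.25 without each library) kept their sign. The 76 genes called as variable became 812 with a common dispersion, 22 with 10 counts or more in every library and 37 to 42 without each library (37 without replicate 1, 42 without replicate 2 and 40 without replicate 3). With no filter beyond 1 count, 1 member was called, Fos (edgeR, adjusted p = 2.06e-31). Without each library the adjusted p of Fos was 0.70 to 0.9996. By the same edgeR test, 1 of the 8 members had an unadjusted p under 0.05 without replicate 3. The number was 0 without replicate 1 and 0 without replicate 2. No paired analysis was possible because the labels give 1 group. With 3 libraries, the exact permutation tests between genes cannot go below p = 0.25.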
